A study of Homo sapiens with 8 samples.

Results

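Imprinted genes are read mainly from a single parental allele, because a DNA methylation mark set in the egg or the sperm silences the other copy. Many of them steer fetal and placental growth, and several have taken on roles in neuronal or endocrine cells. PEG10 (paternally expressed gene 10) derives from the gag and pol genes of an ancient retrotransposon, is needed for the placenta, and is known in prostate cancer as a gene that is abundant in neuroendocrine tumors. The data described here are the 10 imprinted genes PEG10, SGCE, PEG3, MEST, PLAGL1, GNAS, NDN, MAGEL2, SNRPN and DLK1, taken by gene name from a count table of 78691 genes. All 10 of 10 were found and none of the names was repeated in the table. The reads do not separate the parental alleles, so every value is the sum over both copies.

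RNA was sequenced in 8 libraries from human prostate cancer lines, with 2 libraries in each of 4 groups. C4-2B, a castration-resistant adenocarcinoma line, was transduced with lentivirus, either without an insert (control) or with human MYCL under the EF1A promoter and co-expressed EGFP (MYCL). NCI-H660, a neuroendocrine prostate cancer line, carried a non-targeting shRNA (shCtrl) or a miR30-based shRNA cassette against MYCL (shMYCL), delivered in an adenoviral vector according to the design text, whereas the labels describe collection once knockdown was stable. All groups were cultured lines, each arm is a single line, and the line cannot be told apart from the viral vector used in it. The labels call the C4-2B control libraries biological replicates and the others replicates, without naming separate cultures, so p-values measure the spread between these libraries, which may be technical.

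The libraries held between 15177071 and 32344170 counts each. For the targeted gene itself, MYCL, 371 and 320 counts were found in C4-2B control against 65524 and 70253 in C4-2B MYCL, and it had 1863 and 1602 counts in shCtrl against 165 and 198 in shMYCL libraries of NCI-H660. INSM1 and NCAM1, which define neuroendocrine cells, were at 0 counts in all C4-2B libraries, and the luminal markers KLK3 and KLK2 were at 0 in all NCI-H660 libraries. Other luminal markers were abundant there, with KRT8 at 707 and 742 CPM, KRT18 at 293 and 315 CPM and FOXA1 at 268 and 237 CPM in shCtrl. A gene was called when the adjusted p of edgeR's quasi-likelihood test (Benjamini-Hochberg) was under 0.05 and the log2 fold change was at least 0.5 in size. Levels of a gene across libraries are given below as CPM, the counts relative to library size after TMM scaling over the 8 libraries, and levels of different genes are compared only as TPM, which account for gene length.

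PEG10 and SGCE were nearly silent in C4-2B cells and abundant in NCI-H660 cells, and both rose with MYCL in C4-2B while remaining far below the NCI-H660 level. PEG3 and NDN fell with MYCL in C4-2B. MEST, GNAS and SNRPN were expressed at a high level in both lines. None of the genes was called after MYCL knockdown in NCI-H660.

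**Figure D1:**
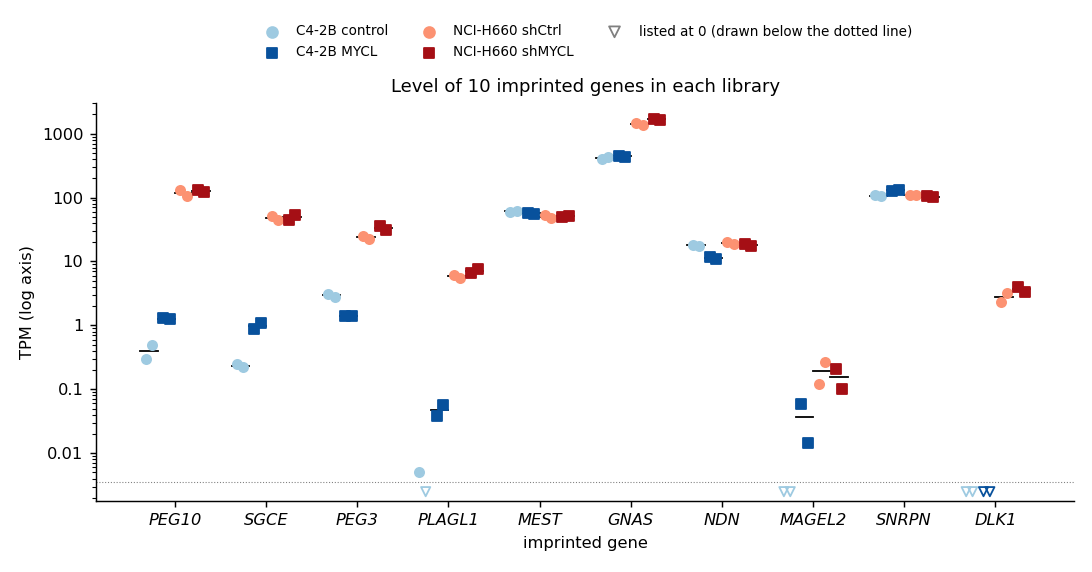
TPM on a log axis of the 10 imprinted genes in each of the 8 libraries, with a point for each library and a black line at the mean of 2 libraries where neither is at 0. PEG10 lay at 0.296 and 0.494 TPM in C4-2B control, at 1.30 and 1.24 TPM in C4-2B MYCL and between 104 and 132 TPM in the 4 NCI-H660 libraries.

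PEG10 lies at chr7:94656325-94669695 on the plus strand of GRCh38 (identifier ENSG00000242265.6). SGCE, the gene of epsilon-sarcoglycan, a membrane protein of the dystrophin-associated complex, lies at chr7:94524204-94656572 on the minus strand (ENSG00000127990.20). The annotated starts of these genes are 247 bases apart on opposite strands, and their exons share 219 bases, which is 3.27% of the exon bases of PEG10. Whether the counting used strand is not given in the sources used here, so reads from the shared bases cannot be assigned. In all 8 libraries the counts of PEG10 were several times those of SGCE, by 3.97-fold at the lowest and 13.1-fold at the highest. Per length, the ratio of PEG10 to SGCE in TPM was 1.20 and 2.24 in C4-2B control, 1.5 and 1.14 in C4-2B MYCL, and between 2.30 and 2.91 in the NCI-H660 libraries.

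PEG10 was measured at 1.69 and 2.71 CPM in the C4-2B control libraries. With MYCL it was at 7.86 and 7.91 CPM, above both controls. In NCI-H660 it was at 467 and 388 CPM in shCtrl libraries and at 477 and 436 CPM in shMYCL libraries, so the groups of this line overlapped. The rise in C4-2B was 1.86 on the log2 scale (SE 0.27, edgeR adjusted p = 0.00112). With limma on log2(TPM + 0.1) it was 1.5 and missed the threshold (adjusted p = 0.0592), and on log2(TPM + 1) it was 0.71 and called (adjusted p = 0.0426), a call lost with no filter on low values (adjusted p = 0.0833, limma). PEG10 is among the genes that the study displayed from these same C4-2B libraries, so its rise there is not independent evidence of a direction. The C4-2B MYCL mean reached 1.84% of the NCI-H660 shCtrl mean, from 0.514% in C4-2B control.

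SGCE was at 0.325 and 0.355 CPM in C4-2B control, which is 10 and 8 counts, and at 1.14 and 1.99 CPM in C4-2B MYCL, which is 20 and 33 counts. SGCE passed the filter on low counts in C4-2B only through the MYCL libraries, so its call adds no independent support. The MYCL libraries lay above both controls. With limma on log2(TPM + 1) and no filter on low values, the rise was 0.68 and not called (adjusted p = 0.0619). In the edgeR fit it was 2.19 on the log2 scale (SE 0.52, edgeR adjusted p = 0.0107). Without the second MYCL library it was 1.74 and no longer called (edgeR adjusted p = 0.115). In NCI-H660, SGCE was at 39.3 and 37.4 CPM in shCtrl and at 36.4 and 42.7 CPM in shMYCL, so the groups overlapped. The C4-2B MYCL mean was 4.08% of the NCI-H660 shCtrl mean.

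After MYCL knockdown in NCI-H660 the log2 difference of PEG10 was 0.09 (95% interval -0.15 to 0.33, edgeR adjusted p = 0.594), and that of SGCE was 0.04 (95% interval -0.22 to 0.30, edgeR adjusted p = 0.845). A fall of both genes by as much as they rose in C4-2B lies outside these intervals. The effect of high against low MYCL differed between the lines for both genes, by 1.98 on the log2 scale for PEG10 (SE 0.24, edgeR adjusted p = 1.53e-04) and by 2.22 for SGCE (SE 0.39, edgeR adjusted p = 0.00177), as interaction terms in a fit of all 8 libraries. Of the 8 genes for which this term could be estimated 4 were called, PEG10, SGCE, PLAGL1 and NDN, where 17.9% of 19605 genes were called, 53.5% of them higher in the edgeR fit and 35.7% on log2(TPM + 1). PLAGL1 had at most 5 counts in any C4-2B library and passed the filter of this fit only through NCI-H660, so its call adds no support. The size of the change in MYCL itself also differed between the lines, as the counts above show, and the interaction does not adjust for it.

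The summed level of the 9 listed neuroendocrine markers was 25.8 and 26.7 CPM in C4-2B control and 76.1 and 76.4 CPM in C4-2B MYCL, against 2057 and 2006 CPM in NCI-H660 shCtrl. ENO2, a neuron-enriched enolase and the only marker called of the 3 tested in C4-2B, carried this difference with 14.2 and 15.2 CPM in control and 63.9 and 62.4 CPM with MYCL. INSM1 and NCAM1 stayed at 0 and CHGA was at 0 in both MYCL libraries. The summed level of the 9 luminal markers was 4312 and 4265 CPM in control and 3619 and 3684 CPM with MYCL, against 1270 and 1296 CPM in NCI-H660 shCtrl. CD68, on the list of 4 blood cell markers, was also higher with MYCL, at 34.4 and 39.2 CPM against 11.4 and 14.3 CPM, while PTPRC was at 0 in all C4-2B libraries. In bulk RNA, fewer cells of a type and less RNA per cell cannot be told apart. ENO2 and CD68 were named after their values were seen, and the part of these markers in the rise of PEG10 and SGCE was not tested.

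Of the 10 genes, 7 passed the filter on low counts in C4-2B, and 4 of those were called, 2 higher and 2 lower. The background for that count is that 19.9% of the 16866 genes tested in C4-2B were called, 1986 higher and 1369 lower, and the median log2 fold change was 0.27 over the 7 genes against -0.0017 over all genes. The 2 higher genes were PEG10, which the study displayed from these libraries, and SGCE, which passed the filter only through the MYCL libraries. The genes were also chosen with earlier results of these data known, so the count carries no independent support. Of the called genes 59.2% were higher in the edgeR fit and 33.5% on log2(TPM + 1), where the median gene was at -0.14. In NCI-H660, 9 of the 10 passed the filter and 0 were called, where 16.2% of 16980 genes were called. At an unadjusted p under 0.05, edgeR's quasi-likelihood test gave 1 of the 9 genes (PEG3) and DESeq2 gave 2, while DESeq2 and limma on TPM also called 0.

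**Figure D2:**
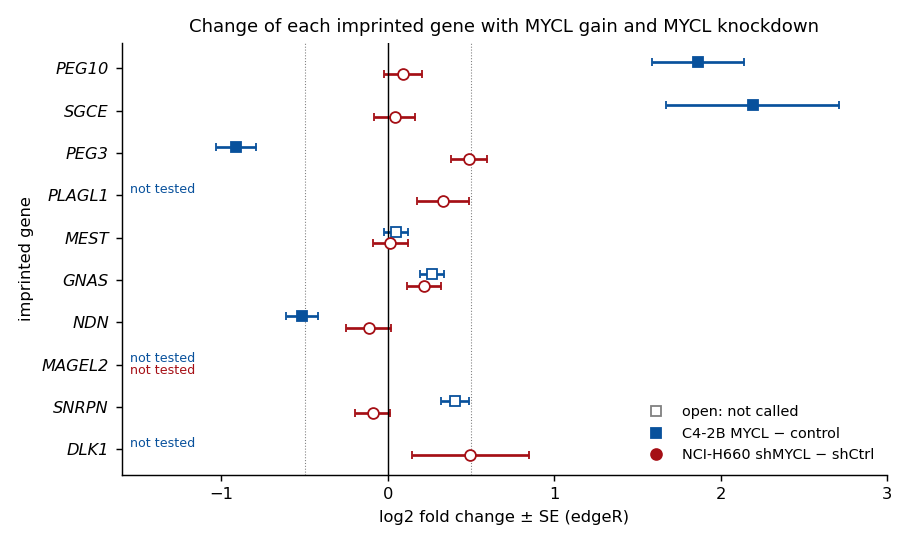
Log2 fold changes with standard errors from edgeR for the 10 imprinted genes (rows), C4-2B MYCL minus control in blue squares and NCI-H660 shMYCL minus shCtrl in red circles, 2 libraries in each group. Filled symbols mark called genes, open symbols genes not called, and dotted lines the minimum size of 0.5. PEG10 and SGCE stand at 1.86 and 2.19 in C4-2B and at 0.09 and 0.04 in NCI-H660.

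PEG3, an imprinted zinc-finger gene with roles in placenta and brain, lies at chr19:56810077-56840728 on the minus strand. In C4-2B it was at 22.6 and 19.7 CPM in control and at 10.9 and 11.5 CPM with MYCL, below both controls. In NCI-H660 it was at 114 and 107 CPM in shCtrl and at 165 and 144 CPM in shMYCL, above both controls. The fall in C4-2B was -0.91 on the log2 scale (SE 0.12, edgeR adjusted p = 6.38e-04). With limma on log2(TPM + 1) it was -0.71 and called (adjusted p = 0.0184), a call lost with no filter on low values (adjusted p = 0.0951, limma).

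The difference after knockdown was 0.49 (SE 0.11, edgeR adjusted p = 0.00399), just under the minimum size of 0.5. Without the first shCtrl library it was 0.54 and without the second shMYCL library 0.58, and both were called, while without the first shMYCL library it was 0.40 (edgeR adjusted p = 0.0881). PEG3 was thus on the lower side with more MYCL in each line, and the interaction term of -0.43 was not called (95% interval -0.76 to -0.09, edgeR adjusted p = 0.0701). Exons of ZIM2 on the same strand cover 12.9% of the exon bases of PEG3, and those of the antisense lncRNA ENSG00000286125 cover 39.1%. ZIM2 had between 2.89 and 17.5 estimated counts per library, and the antisense gene 0 to 7 counts in C4-2B libraries and 42.4 to 90.7 estimated counts in NCI-H660, against 191 to 2649 for PEG3. MIMT1, whose start lies 138 bases from that of PEG3, had at most 4 counts in C4-2B and 39 to 53 in NCI-H660.

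NDN, MAGEL2 and SNRPN lie in the imprinted region 15q11-q13, whose loss on the paternal copy underlies Prader-Willi syndrome. NDN (necdin, a MAGE-family protein that restrains proliferation in neurons) lies at chr15:23685400-23687305 on the minus strand, MAGEL2 (a partner of ubiquitin ligases in protein trafficking) at chr15:23643549-23647867 on the minus strand, and SNRPN (the splicing protein SmN) at chr15:24823637-24978723 on the plus strand. The bases before their starts that overlap no annotated exon are shown for NDN, which was called in C4-2B, and for the start that SNRPN shares with SNURF, a gene that overlaps it.

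NDN, chr15:23687306-23687555, minus strand: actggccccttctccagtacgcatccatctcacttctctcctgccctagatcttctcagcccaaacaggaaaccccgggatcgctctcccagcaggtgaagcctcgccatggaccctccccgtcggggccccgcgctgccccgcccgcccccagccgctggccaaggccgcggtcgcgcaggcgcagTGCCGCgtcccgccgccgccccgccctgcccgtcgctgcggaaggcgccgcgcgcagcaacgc
SNRPN and SNURF, chr15:24954737-24954934, plus strand: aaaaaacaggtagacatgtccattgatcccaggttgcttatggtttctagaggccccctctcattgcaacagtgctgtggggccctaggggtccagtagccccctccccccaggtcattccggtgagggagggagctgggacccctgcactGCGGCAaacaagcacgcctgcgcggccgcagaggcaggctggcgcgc

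Sequences are from RefSeq on GRCh38.p14, written 5′ to 3′ on the strand of the gene. Capitals mark TGCCGC or its reverse complement GCGGCA, the letters bound by the imprint-protecting zinc-finger protein ZFP57 when methylated. ZFP57 itself had at most 1 count in any C4-2B library and 0 in all NCI-H660 libraries. The NDN stretch holds 30 CpG pairs, where the median over the 34943 RefSeq windows of 250 bases is 11. TGCCGC on either strand is in 12.7% of those windows and in 6 of the 22 windows of the imprinted genes, among them 2 of 4 for SNRPN, 1 of 1 for NDN and 0 of 1 for MAGEL2.

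NDN was at 26.7 and 25.7 CPM in C4-2B control and at 18 and 18.5 CPM with MYCL, below both controls. The fall was -0.52 on the log2 scale (SE 0.10, edgeR adjusted p = 0.00363). Its size sits at the minimum for a call, and it was -0.50 without the first control library and -0.49 without the first MYCL library, which ended the call by size and not by p. In NCI-H660, NDN was at 18.7 and 18.8 CPM in shCtrl and at 18.1 and 16.7 CPM in shMYCL, with a log2 difference of -0.11 (95% interval -0.40 to 0.17, edgeR adjusted p = 0.578). The effect of MYCL differed between the lines by -0.63 (SE 0.16, edgeR adjusted p = 0.0140), a call lost without the first C4-2B control library (edgeR adjusted p = 0.0598) or the second NCI-H660 shMYCL library (edgeR adjusted p = 0.0616).

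SNRPN was at 119 and 112 CPM in C4-2B control and at 141 and 162 CPM with MYCL, above both controls. The difference of 0.40 (SE 0.09, edgeR adjusted p = 0.00630) was under the minimum size, and it was 0.51 and called without the first MYCL library. In NCI-H660, SNRPN was at 75.0 and 79.7 CPM in shCtrl and at 72.9 and 72.8 CPM in shMYCL. SNURF covers 23.9% of the exon bases of SNRPN on the same strand and took between 1.28% and 2.86% of the summed counts of both genes. With the counts of both genes summed, an alternative chosen after seeing the data, the C4-2B difference was 0.40 (edgeR adjusted p = 0.00626). ENSG00000214265, on the same strand over 15.9% of the exon bases of SNRPN, had between 6.33 and 46.9 estimated counts per library. SNHG14, the long host transcript that continues through this region, shares 4.14% of these exon bases.

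MAGEL2 was at 0 counts in both C4-2B control libraries, at 4 and 1 counts with MYCL, and between 4 and 13 counts in NCI-H660, and it passed the filter in no comparison. A count of 0 allows up to 3 counts in a library, for counting error only.

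The genes of 15q11-q13 did not move as a block with MYCL. Of the 10 genes of this region that were listed, NDN, MAGEL2 and SNRPN among them, 8 were tested in C4-2B. NDN and MKRN3 were called, both lower, where 19.9% of all genes were called. MKRN3, a gene that restrains the onset of puberty, had 540 and 334 counts in C4-2B control and 191 and 171 with MYCL, a fall of -0.61 (SE 0.13, edgeR adjusted p = 0.00775), and it was at 0 in all 4 NCI-H660 libraries. In NCI-H660, 6 of the region's genes were tested and 2 were called lower after knockdown, where 16.2% of all genes were called. SNHG14 fell by 0.52 (SE 0.12, edgeR adjusted p = 0.00447) and PWAR5, a non-coding transcript of the same stretch, fell by 0.85 (SE 0.17, edgeR adjusted p = 0.00173), while SNRPN differed by -0.09 (95% interval -0.31 to 0.13). PWAR5 was named after its values were seen. Between the control lines, 8 genes of the region were tested in the edgeR fit, 7 were lower in NCI-H660 and 0 higher, where 69.8% of all genes were called. Of these, MKRN3 and ATP10A were at 0 in NCI-H660 and passed the filter only through C4-2B. SNRPN, also among the 7, was at 0.04 on log2(TPM + 1) and not called there, so the count depends on the scaling. SNRPN shares exon bases with SNURF and SNHG14, so these genes are not fully separate.

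PLAGL1 (a zinc-finger transcription factor tied to transient neonatal diabetes) lies at chr6:143940300-144064599 on the minus strand. It had 1 and 0 counts in C4-2B control and 4 and 5 counts with MYCL, against 194 to 219 counts in the NCI-H660 libraries. In C4-2B it did not pass the filter, and the ratio of MYCL to control was 14.1 with a 95% counting interval of 1.95 to 616. In NCI-H660 it was at 11.1 and 9.90 CPM in shCtrl and at 13.2 and 13.3 CPM in shMYCL, above both controls, with a log2 difference of 0.33 (95% interval -0.01 to 0.67, edgeR adjusted p = 0.141). The interaction term of 3.76 (SE 0.86, edgeR adjusted p = 0.00852) rests on these few C4-2B counts, and on TPM it was not called (0.30, adjusted p = 0.302, limma).

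RefSeq promoter windows matched 6 of the 10 genes, namely MEST, PLAGL1, GNAS, NDN, MAGEL2 and SNRPN, and not PEG10, SGCE, PEG3 and DLK1. CACGTG, the E-box letters bound by dimers of the MYC family and MAX and the same on both strands, was in 2 of the 22 windows of 250 bases before a start, where 6.32% of all such windows hold it. The windows were 1 of 5 for PLAGL1 and 1 of 6 for GNAS, the latter at chr20:58852466-58852715. The part of the PLAGL1 window outside annotated exons is shown because it holds the match, in capitals. A match is a description of letters and not a measured site.

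PLAGL1, chr6:144008431-144008509, minus strand: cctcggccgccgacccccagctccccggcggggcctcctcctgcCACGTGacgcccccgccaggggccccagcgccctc

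MEST, GNAS and DLK1 were not called in either MYCL comparison. MEST (a putative hydrolase named for its expression in mesoderm, chr7:130486171-130506465) was at 117 and 119 CPM in C4-2B control, at 119 and 125 CPM with MYCL, and between 63.2 and 66.5 CPM in NCI-H660. Its log2 differences were 0.05 in C4-2B (95% interval -0.11 to 0.21; -0.10 on log2(TPM + 1)) and 0.01 in NCI-H660 (95% interval -0.21 to 0.24). Antisense exons of MESTIT1 cover 10.2% of its exon bases and those of COPG2 cover 4.78%, with 1 to 24 counts for MESTIT1 and 771 to 2286 for COPG2.

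GNAS encodes the stimulatory G protein subunit that couples receptors to cyclic AMP, from a complex locus with several starts at chr20:58839718-58911192. It was at 477 and 503 CPM in C4-2B control and at 569 and 605 CPM with MYCL, above both controls, a difference of 0.27 (SE 0.07, edgeR adjusted p = 0.0191) that was under the minimum size. In NCI-H660 it was at 1122 and 1134 CPM in shCtrl and at 1351 and 1278 CPM in shMYCL, a difference of 0.22 (95% interval -0.0016 to 0.44, edgeR adjusted p = 0.138). The shMYCL libraries lay above both controls here too, so GNAS was on the higher side with more MYCL in C4-2B and with less MYCL in NCI-H660, and the interaction term of 0.48 (SE 0.12, edgeR adjusted p = 0.0110) was just under the minimum size. DESeq2 put that term at 0.50 and called it, and edgeR called it at 0.51 to 0.54 without the second C4-2B control, the first C4-2B MYCL or the second NCI-H660 shMYCL library.

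DLK1, a transmembrane regulator of Notch signaling and of fat cell differentiation (chr14:100725705-100738224), was at 0 counts in all 4 C4-2B libraries. It had 30 and 47 counts in shCtrl and 50 and 44 in shMYCL libraries of NCI-H660, with a log2 difference of 0.49 (95% interval -0.25 to 1.24, edgeR adjusted p = 0.333). With no counts in C4-2B, no interaction could be estimated.

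Most of the genes differed between the lines themselves. Between the control groups, 9 of the 10 genes were tested in the fit of all 8 libraries and 8 were called, 6 higher in NCI-H660 and 2 lower, where 69.8% of 19605 genes were called. PLAGL1 and DLK1 passed this filter only through NCI-H660. PEG10 was 7.64 higher on the log2 scale (SE 0.17, edgeR adjusted p = 3.24e-13) and SGCE 6.80 higher (SE 0.23, edgeR adjusted p = 9.90e-12). PEG3 was 2.38 higher (SE 0.11) and GNAS 1.20 higher (SE 0.08).

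PLAGL1 was higher in NCI-H660 control by a ratio of 559 with a 95% counting interval of 99.7 to 22133, from 393 counts against 1. DLK1 was at least 17.7-fold higher against a floor of 3 counts per C4-2B library, and MAGEL2 was not tested, with 5 and 13 counts against 0 and 0. MEST was lower in NCI-H660 by -0.88 (SE 0.08) and SNRPN by -0.57 (SE 0.09) in the edgeR fit, and NDN by -0.48 (SE 0.11, not called, and called at -0.52 without the second C4-2B control library). On log2(TPM + 1), where the median gene was 0.52 higher in NCI-H660, NDN and SNRPN turned to 0.12 and 0.04 and MEST was at -0.27 and not called. With each library centred on its median, an alternative chosen after seeing the data, they were at -0.63, -0.71 and -1.02. The direction of NDN and SNRPN between the lines therefore depends on the scaling. MEST was lower in NCI-H660 under each of these scalings and PEG10, SGCE, PEG3 and GNAS were higher. The share of called genes that were higher in NCI-H660 was 52.2% in the edgeR fit, 71.1% on TPM and 40.8% on centred TPM.

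In C4-2B control the order by mean TPM was GNAS at 417, SNRPN at 107, MEST at 61.1, NDN at 17.9, PEG3 at 2.94, PEG10 at 0.395 ± 0.141 (SD, n = 2) and SGCE at 0.234 ± 0.019 (SD, n = 2), with no overlap between neighbours among these 7 genes. In NCI-H660 shCtrl, GNAS was highest at 1423, followed by PEG10 at 118 ± 19.6 (SD, n = 2), which overlapped SNRPN at 110. MEST at 50.5 overlapped SGCE at 47.6, followed by PEG3 at 24.1, NDN at 19.5, PLAGL1 at 5.84, DLK1 at 2.80 and MAGEL2 at 0.195. PEG10 thus ranked 6 of 10 in C4-2B control and 2 of 10 in NCI-H660 shCtrl.

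PEG10 and SGCE were not alone at 7q21 in their difference between the lines. Of 15 listed neighbours within 7q21-q22, 9 were tested between the control groups, 7 were higher in NCI-H660 and 2 were lower, where 69.8% of all genes were called. The median was 2.62 on the log2 scale against 0.03 over all genes. GNGT1, COL1A2, PDK4 and DYNC1I1 passed the filter only through NCI-H660, which tilts the count and the median toward higher. The collagen gene COL1A2, whose start lies 261 kb from that of PEG10, was at 0 counts in C4-2B and at least 869-fold higher in NCI-H660, while CASD1 lies between them at 147 kb and was 0.74 higher (SE 0.10). On the other side, PPP1R9A, an actin-binding scaffold gene of neurons at 251 kb, was 2.62 higher (SE 0.16) and PON2, a paraoxonase gene at 779 kb, was 1.34 lower on the log2 scale. PDK4, a kinase that turns off pyruvate dehydrogenase, was 5.48 higher.

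Few of these neighbours could be tested for the rise that PEG10 and SGCE showed with MYCL. In C4-2B, 5 of the 15 were tested, and edgeR called 1 lower and 0 higher. That share is close to the 19.9% of all genes called. GNGT1, COL1A2, PDK4 and DYNC1I1, which were higher in NCI-H660, had too few counts in C4-2B to be tested. Whether the rise was limited to PEG10 and SGCE cannot be told from these genes. SLC25A13, a mitochondrial aspartate-glutamate carrier gene, had 1982 and 1289 counts in control and 501 and 513 with MYCL and fell by 1.03 (SE 0.09, edgeR adjusted p = 1.19e-04). BET1 (0.38), CASD1 (-0.27) and PON2 (-0.25) had edgeR adjusted p-values between 0.0251 and 0.0346 and were under the minimum size, and PPP1R9A was at -0.47 (edgeR adjusted p = 0.157). After knockdown in NCI-H660, PDK4 rose by 1.66 (SE 0.16, edgeR adjusted p = 4.82e-06) and COL1A2 fell by 0.68 (SE 0.10, edgeR adjusted p = 2.52e-04).

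**Figure D3:**
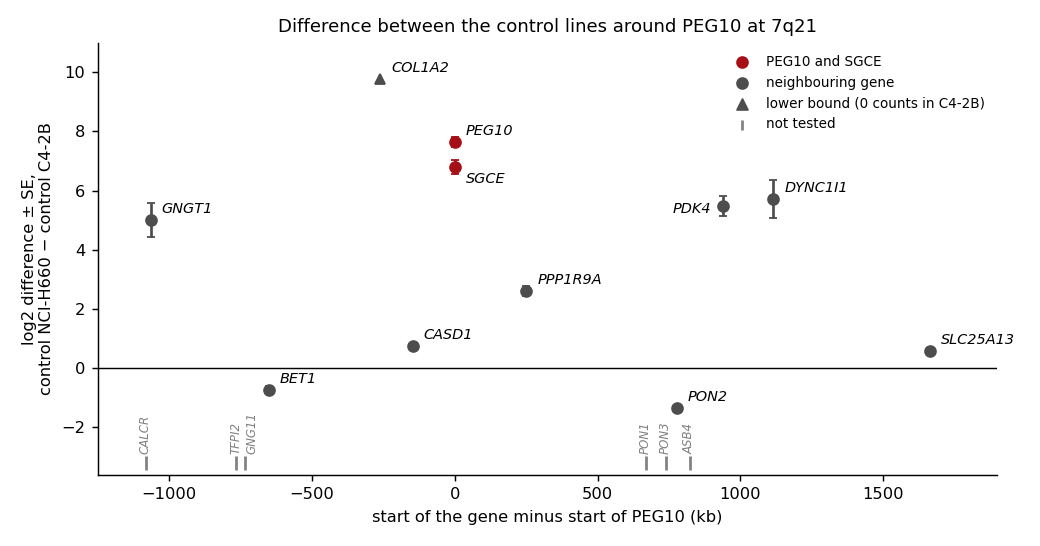
Log2 difference between control NCI-H660 and control C4-2B libraries with its standard error, 2 libraries each (edgeR, fit of 8 libraries), against the distance of each gene's start from the start of PEG10 in kb. PEG10 and SGCE are in red, neighbours in grey, COL1A2 is drawn at its lower bound and ticks mark genes not tested. PEG10 and SGCE stand at 7.64 and 6.80, and the nearest tested neighbours on each side, CASD1 and PPP1R9A, at 0.74 and 2.62.

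The 5 genes whose pattern over the 8 libraries was most like that of PEG10, by the root mean square difference of log2 CPM centred on each gene's mean, were DISC1 (0.192), FBLN1 (0.254), SEMA6D (0.281), TM6SF1 (0.295) and PCBP3 (0.296), out of 19604 genes. FBLN1, an extracellular matrix gene and the most abundant of these in C4-2B, had 17 and 18 counts in control, 55 and 52 with MYCL, and 1935 to 2516 in NCI-H660. The other 4 had at most 7.77 estimated counts in any C4-2B library. Among the imprinted genes, PLAGL1 ranked 60 and SGCE 132 by this measure, and the next, DLK1, ranked 1045. The measure is a description, and it is carried by the difference between the lines that the libraries share.

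Other imprinted genes were described from a list of 72 names, of which 68 are in the table. In C4-2B, 39 were tested, 6 were higher and 4 lower with MYCL, where 19.9% of all genes were called. The median was 0.05 against -0.0017 over all genes. The growth factor gene IGF2, among the higher genes, passed the filter on low counts only through the MYCL libraries. CDKN1C, which encodes the cell cycle inhibitor p57, rose from 145 and 117 counts to 550 and 483 (2.62, SE 0.12, edgeR adjusted p = 4.69e-06), and PHLDA2, a brake on placental growth, rose by 1.00 (SE 0.10, edgeR adjusted p = 1.85e-04). SLC22A3, an organic cation transporter gene, fell from 2667 and 1777 counts to 248 and 220 (-2.59, SE 0.10, edgeR adjusted p = 2.33e-06), and its neighbour IGF2R, a receptor that clears IGF2, fell by 0.94 (SE 0.07, edgeR adjusted p = 4.25e-05).

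In NCI-H660, 39 of the list were tested after knockdown, 5 were higher and 7 lower, where 16.2% of all genes were called. The median was 0.05 against -0.0029 over all genes. The potassium channel gene KCNK9 fell by 1.19 (SE 0.14), PEG13, a non-coding RNA of the same cluster, fell by 1.56 (SE 0.26) and ERLIN2 fell by 0.67 (SE 0.12), while TP73 rose by 0.85 (SE 0.11). Their edgeR adjusted p-values ran from 2.12e-05 to 6.88e-04. Between the control lines, 49 of the list were tested, 15 were higher in NCI-H660 and 21 lower, a share close to the 69.8% of all genes called. SLC22A3 was at least 516-fold lower and NLRP2 at least 335-fold lower in NCI-H660, TP73 was 4.81 higher on the log2 scale and KCNK9 7.78 higher.

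**Figure D4:**
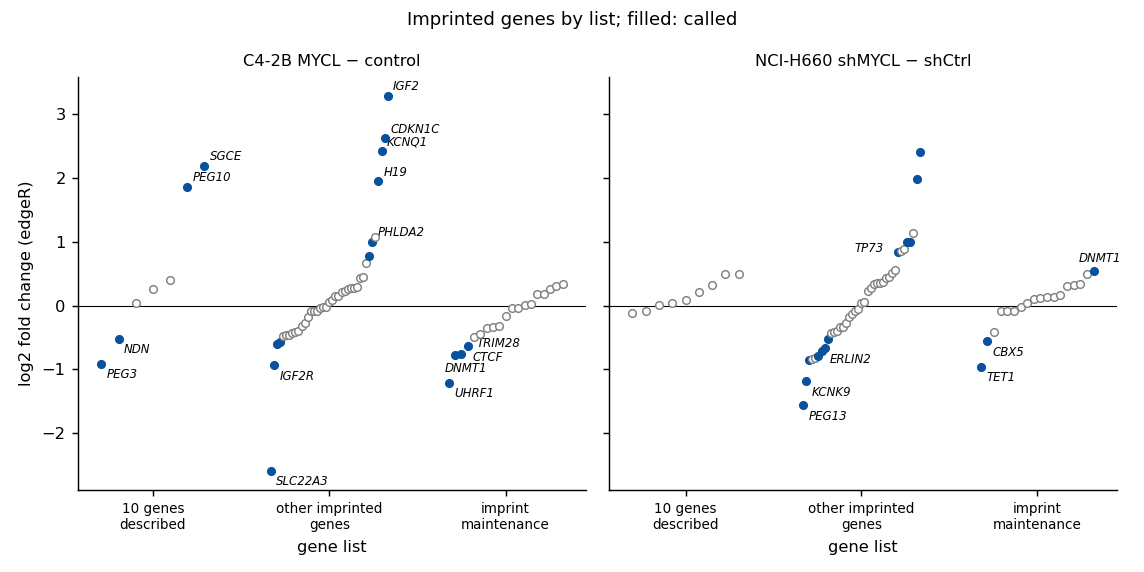
Log2 fold changes from edgeR of the tested genes of 3 lists, each a point ordered by value within its list, for C4-2B MYCL minus control (left) and NCI-H660 shMYCL minus shCtrl (right), 2 libraries in each group. Filled points are called. In C4-2B the 4 called imprint maintenance factors lie below 0, and of the called other imprinted genes 6 lie above and 4 below. Of all genes tested in C4-2B, 19.9% were called.

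Imprint maintenance was described from 27 listed factors, among them the demethylase genes TET1, TET2 and TET3. With MYCL in C4-2B, 19 were tested, and 4 were lower and 0 were higher in edgeR's quasi-likelihood test. That share is close to the 19.9% of all genes called in C4-2B. The median was -0.16 against -0.0017 over all genes. The maintenance DNA methyltransferase DNMT1 fell by 0.78 (SE 0.07, edgeR adjusted p = 1.06e-04), its recruiter UHRF1 by 1.20 (SE 0.14), the insulator protein gene CTCF by 0.75 (SE 0.08) and TRIM28, the corepressor that works with ZFP57, by 0.63 (SE 0.07). ZFP57 was nearly absent, with at most 1 count in any library. In NCI-H660, 18 were tested after knockdown, 1 was higher and 2 were lower, where 16.2% of all genes were called. DNMT1 rose by 0.55 (SE 0.10, edgeR adjusted p = 0.00124), so DNMT1 was lower with more MYCL in each line, while the demethylase gene TET1 fell by 0.95 (SE 0.13) and the heterochromatin protein gene CBX5 by 0.56 (SE 0.12). UHRF1 was 2.30 higher, TET1 3.22, CBX5 3.05 and ZNF445 1.44 higher in control NCI-H660 than in control C4-2B. There 14 of 19 tested factors were higher and 2 lower, where 69.8% of all genes were called. DNA methylation was not measured in these libraries.

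Relatives of PEG10 that also derive from retrotransposon gag genes changed in a few cases. Of 25 listed, 11 were tested in C4-2B and 3 were higher with MYCL and 0 lower, where 19.9% of all genes were called. The median was 0.18 against -0.0017 over all genes. The neuronal capsid-forming gene ARC rose by 1.41 (SE 0.31), PNMA6A by 1.22 (SE 0.38) and LDOC1 by 0.51 (SE 0.11), with edgeR adjusted p-values between 0.00630 and 0.035. After knockdown in NCI-H660, 16 were tested, 1 was higher and 3 lower, where 16.2% of all genes were called. PNMA2 fell by 0.80 (SE 0.12), PNMA6A by 1.01 (SE 0.16) and RTL8A by 0.51 (SE 0.14), and ARC rose by 1.53 (SE 0.54) on 6 to 24 counts. Between the control lines 10 of 17 were higher in NCI-H660 and 5 lower, where 69.8% of all genes were called. PNMA2, RTL4, RTL8B, PNMA8A, ZCCHC12 and ZCCHC18 passed the filter only through NCI-H660, and LDOC1 only through C4-2B, which tilts the counts toward calls. PNMA2 was at least 454-fold higher, LDOC1 at least 249-fold lower, RTL10 2.18 lower on the log2 scale and RTL8B higher by a ratio of 343 (95% counting interval 94.4 to 2838).

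The partners of the other genes are given by their counts, beside the 19.9% of all genes called in C4-2B and 16.2% in NCI-H660. Of the sarcoglycan and dystroglycan partners of SGCE, 7 of 14 were tested in C4-2B and 2 were lower, UTRN by -0.52 (SE 0.07) and DAG1 by -0.52 (SE 0.07). In NCI-H660, SGCD rose by 1.41 (SE 0.24) and SNTB1 fell by 0.71 (SE 0.12) among 10 tested. Of the Gs pathway partners of GNAS, 17 of 21 were tested in C4-2B, GNAL rose by 1.18 (SE 0.11) and ADCY7 by 0.86 (SE 0.17), and PRKACB fell by 0.66 (SE 0.07). In NCI-H660, ADCY3 rose by 0.53 (SE 0.13) and RIC8B by 0.55 (SE 0.14) among 18 tested.

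Of the 7 Sm core partners of SNRPN, SNRPD1 fell by 0.53 (SE 0.07) in C4-2B, and 0 of 7 were called in NCI-H660 in the edgeR test. Of the MAGE family relatives of NDN and MAGEL2, 0 of 9 tested were called in C4-2B, and MAGEH1 (-0.69, SE 0.18) and MAGEE1 (-0.53, SE 0.18) were lower among 10 tested in NCI-H660. None of the 3 tested relatives of PLAGL1 and DLK1 was called in either line. All of the calls in these lists had an edgeR adjusted p of at most 0.0402.

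Between the control lines, where 69.8% of all genes were called, 8 of 11 tested partners of SGCE were called (6 higher in NCI-H660, 2 lower), 14 of 19 partners of GNAS (8 higher, 6 lower), 3 of 7 Sm core genes (all lower), 7 of 10 MAGE relatives (5 higher, 2 lower) and 3 of 4 relatives of PLAGL1 and DLK1 (2 higher, 1 lower). The genes named are those with the smallest adjusted p of each list. SNTB1 was higher in NCI-H660 by a ratio of 3965 from 1 count in C4-2B (95% counting interval 711 to 156678), DTNA was 7.99 and SGCB 1.98 higher on the log2 scale, and SNTB2 was 1.98 lower. ADCY5 was 8.57, PDE4D 2.86 and GNAL 2.39 higher, and PRKACB was 3.71 lower. SNRPE, SNRPD2 and SNRPF were lower by 1.13, 0.91 and 0.58. MAGEH1 was higher by a ratio of 264 (95% counting interval 89.9 to 1284) and MAGED2 by 0.51 on the log2 scale, while MAGEF1 and MAGED1 were lower by 0.95 and 0.76. DLK2 was 3.42 higher, EGFL6 was higher by a ratio of 23.2 (95% counting interval 7.5 to 117) and PLAG1 lower by a ratio of 18.5 (95% counting interval 6.11 to 91.7).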

How the data were processed

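Poly(A) RNA of 8 libraries was sequenced with paired ends, and groups came from the labels. The authors deposited estimated counts per gene (22.4% of values above 0 were not whole at a tolerance of 0.01) and TPM for the first 65535 genes. The paper describes TPM as counts normalized by lengths from Ensembl annotation. In the deposited TPM the length of a gene was not fixed over libraries, as SNURF had 64 and 66 counts but 9.17 and 15.2 TPM in the C4-2B MYCL libraries. The build is hg38 per the submitters' processing notes. The aligner, counter and strand setting are not given in the sources used here. Counts were rounded, filtered with filterByExpr, scaled by TMM and tested with edgeR 4.0.16 (quasi-likelihood, R 4.3.3), within each line for the MYCL comparisons and over 8 libraries for the lines and the interaction. In the fits over 8 libraries, a gene low in C4-2B or in NCI-H660 could pass the filter through the other line alone. P-values were adjusted over all genes tested. An exact permutation test of 2 against 2 libraries cannot go below 0.333. Alternatives were DESeq2 1.42.0, RLE scaling, no filter, other sets of samples, a replicate block, no minimum fold change, each library left out, and limma 3.58.1 on log2(TPM + 1) or log2(TPM + 0.1), with at least 1 TPM in 2 libraries or no filter. Centred TPM and summed SNRPN and SNURF counts were added after seeing the data. Scripts were tested on simulated data.

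The members and lists were chosen with earlier results of these data known, and the list of other imprinted genes was merged from separate lists by parental origin after values were seen. Named genes were all members, up to 4 called genes with the smallest adjusted p per list and comparison, genes overlapping a member or starting within 2 kb of it, and the 5 most like PEG10. Counting intervals and floors (3 counts) cover counting error only. Coordinates are from GENCODE on GRCh38. Replicates differed beyond sampling noise (chi-square per degree of freedom 5.13 to 12.8).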

Additional observations from a re-analysis of the deposited data

Results flagged for a closer look

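The effect of high against low MYCL differed between the lines, by the interaction term of edgeR's quasi-likelihood test, for 4 of the 8 imprinted genes for which it could be estimated, where 17.9% of all genes were called. The difference was 1.98 for PEG10, 2.22 for SGCE, 3.76 for PLAGL1 and -0.63 for NDN on the log2 scale. PLAGL1 passed the filter of this fit only through NCI-H660, with at most 5 counts in any C4-2B library, so its call adds no support. PLAGL1 was not called on log2(TPM + 1) (0.30, adjusted p = 0.302, limma), and NDN was not called without the first C4-2B control library (edgeR adjusted p = 0.0598) or the second NCI-H660 shMYCL library (edgeR adjusted p = 0.0616). Up to 4 genes of each list with the smallest adjusted p are given with them, leaving out genes at 0 in every library of a group.

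Of the other imprinted genes, where 8 were higher and 8 lower of 42 tested, the term was 1.82 for CDKN1C, -1.12 for IGF2R, -0.80 for GRB10 and -0.95 for SNHG14. Around PEG10 at 7q21 it was -1.05 for SLC25A13, -0.58 for CASD1 and -0.80 for PPP1R9A, opposite in sign to PEG10 and SGCE. Of the gag-derived genes it was 2.94 for ARC, 1.23 for RTL5 and -1.35 for PNMA3. Of the imprint maintenance factors it was -0.71 for CTCF, -0.88 for UHRF1, -0.57 for TET3 and -0.76 for TET2.

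Of the partners of SGCE it was -0.67 for DAG1, -0.62 for UTRN and 0.70 for DTNB, of those of GNAS 1.10 for GNAL, -0.70 for GNG5 and 0.55 for PRKACA, and of those of SNRPN -0.59 for SNRPD1. The edgeR adjusted p-values of these terms ran from 1.20e-04 for CDKN1C to 0.0471 for PNMA3. With 2 libraries in each group no single library could be tested as standing apart.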

How the results depend on the processing

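Over all alternatives, 76 of 88 fold changes of the imprinted genes in C4-2B kept their direction and side of the threshold, 111 of 117 after knockdown in NCI-H660, 106 of 117 between the lines and 112 of 128 interaction terms. On TPM with limma (pseudocounts 1 and 0.1, and unfiltered), MEST was at -0.10 in C4-2B and its interaction term at -0.0781, -0.0792 and -0.0781, and between the lines NDN was at 0.12, 0.13 and 0.12 and SNRPN at 0.0401, 0.0404 and 0.0401. Of the imprinted genes in C4-2B, 2 were called on log2(TPM + 0.1), 1 on unfiltered TPM and 2 on centred TPM. On unfiltered TPM, 1 interaction term was called. Over all genes, 1940 were called in C4-2B and 1898 for the interaction on unfiltered TPM, and 5895 in C4-2B with no minimum fold change. In NCI-H660 the count was 1702 on log2(TPM + 1), 1600 on log2(TPM + 0.1), 1 on unfiltered TPM, 1692 on centred TPM and 4204 with no minimum, which also called 1 of the imprinted genes, PEG3. The cause of these differences was not tested. With 1 library left out, the imprinted genes called ranged from 3 to 4 in C4-2B, 0 to 1 in NCI-H660, 8 to 10 between the lines and 3 to 5 for the interaction, and all genes called from 2835 to 3556, 2292 to 3035, 13216 to 13569 and 2532 to 3513. In NCI-H660 the difference then ranged from -0.0320 to 0.234 for PEG10, -0.0783 to 0.160 for SGCE and -0.0114 to 0.0510 for MEST. The replicate numbers did not pair the libraries (correlations -0.0030 and 0.018), and with a replicate block 4, 0, 8 and 4 of the imprinted genes were called and 3536, 2949, 13579 and 3436 of all genes. Few counts limit SGCE, PLAGL1, MAGEL2 and DLK1 in C4-2B.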

Other observations

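The imprinted genes of 11p15.5 were set apart after their values were seen, so they carry no independent support. This region holds the growth factor gene IGF2, the non-coding RNA H19 and the cell cycle inhibitor gene CDKN1C under separate imprinting centers. In C4-2B, 7 of its 8 listed genes were tested and 5 were higher with MYCL, where 19.9% of all genes were called. These are 5 of the 6 higher calls among all other imprinted genes listed. IGF2 had 8 and 18 counts in control and 97 and 73 with MYCL (3.29, SE 0.47, edgeR adjusted p = 9.59e-04). The control libraries alone would not have carried IGF2 through the filter on low counts, so its call adds no support. H19 had 49 and 43 counts in control and 103 and 125 with MYCL (1.95, SE 0.27, edgeR adjusted p = 8.05e-04).

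KCNQ1, a potassium channel gene of the same region, had 24 and 41 counts in control and 121 and 110 with MYCL (2.42, SE 0.37, edgeR adjusted p = 0.00138). CDKN1C and PHLDA2 were the other 2 higher genes. KCNQ1OT1 (0.46) and OSBPL5 (0.27) were not called. After knockdown in NCI-H660, 6 genes of the region were tested, and CDKN1C fell by 0.80 (SE 0.19, edgeR adjusted p = 0.00681), the 1 call among them, where 16.2% of all genes were called.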
